A study of Mus musculus with 157 samples.

Results

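The genes described here are 42 cell cycle and DNA replication genes, chosen by symbol from the 24940 genes listed in each of 8 expression tables from mouse macrophages grown from bone marrow and then given particles. They comprise 4 genes of the entry into S phase, 14 of DNA replication and 24 of mitosis. All 42 were listed in every table and all 42 passed the filter on low values in each of the 8 experiments, so none is missing from any count below.

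Cells enter S phase when cyclin-dependent kinases inactivate the retinoblastoma family of pocket proteins, which releases E2F transcription factors onto the genes of DNA synthesis. The MCM hexamer is loaded at origins in G1 and becomes the replicative helicase together with CDC45 and the GINS complex. Genes of G2 and mitosis are switched on later, largely through CCAAT boxes bound by NF-Y and cell cycle homology regions bound by the DREAM and MuvB complexes with B-MYB and FOXM1. Bone marrow-derived macrophages divide in culture in response to M-CSF, so that these transcripts are present without any particle.

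Macrophages were grown from marrow of C57BL/6 mice, of Bhlhe41-/- or Bhlhe40-/- mice and of Tfeb-Tg mice in DMEM with 16 ng/mL M-CSF, or from Ampka1-/- mice and congenic wild type mice in RPMI with 5 ng/mL M-CSF. All particles were given at 250 ug/mL against PBS: monosodium urate crystals (MSUc), calcium pyrophosphate dihydrate crystals (CPPD), silica nanoparticles, and aluminum hydroxide salt (alum). The experiments were a time course of MSUc in wild type cells (10 and 30 min, 1, 2 and 5 h), a comparison of the 4 particles in wild type cells, Tfe3WT and Tfe3KO cells with MSUc, CPPD or silica, TfebWT and Tfeb-Tg (a Tfeb transgene) with MSUc, Ampka1WT and Ampka1KO with MSUc, Bhlhe WT, Bhlhe40KO and Bhlhe41KO with MSUc, wild type cells with vehicle or 1 uM SGC0946 (a DOT1L inhibitor, present from the first day of culture) with MSUc, and wild type cells with vehicle or metformin with MSUc. The labels do not give the exposure time outside the time course, the metformin dose, the promoter of the Tfeb transgene or whether replicates came from separate mice, so that p-values measure only the spread between these libraries.

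The 115 libraries held 2.12 to 22.1 M reads (median 10.1 M), with 2 or 3 libraries in a group. Levels are in TPM (transcript abundance scaled for transcript length and library total). Changes are log2 differences of TPM + 1 with their SE from limma, fitted over all genes tested in an experiment, and a gene rose or fell where its Benjamini-Hochberg adjusted p was under 0.05. These are bulk libraries, in which fewer cycling cells and less of a transcript per cell cannot be told apart. Macrophage markers were high in all libraries (8 genes, summed 8393 TPM or more) while lymphocyte and granulocyte progenitor markers did not exceed 8.9 and 68.5 TPM in sum. Other markers were not low throughout: erythroid, neutrophil and stromal markers reached 212.5, 1990 and 7725 TPM in sum in their highest library. Not all cultures were therefore free of other cells' transcripts. Of the targeted genes, Bhlhe40 was lower in Bhlhe40KO (5.59 to 6.93 TPM in PBS) than in its wild type (57.8 to 76.1). Tfeb was higher in Tfeb-Tg (75.1 to 86.5 against 43.7 to 44.4 TPM in PBS). In PBS Tfe3 measured 66.7 to 70.0 TPM in the libraries labelled Tfe3KO and 94.2 to 104 in Tfe3WT, Prkaa1, which encodes AMPK alpha 1, 24.3 to 27.3 in Ampka1KO and 23.1 to 25.4 in Ampka1WT, and Bhlhe41 46.3 to 49.8 in Bhlhe41KO and 49.8 to 55.9 in wild type. After MSUc Tfe3 was at 84.9 to 87.3 TPM in Tfe3KO and 79.7 to 83.3 in Tfe3WT. For Tfe3 and Prkaa1 the gene-level value therefore does not check the label. Bhlhe41 after MSUc was at 49.5 to 50.3 TPM in Bhlhe41KO and 90.1 to 94.9 in wild type. Its value thus differed clearly with the label after MSUc and hardly in PBS. The libraries titled Tfe3WT carry Tfe3KO in their genotype field, and TfebWT MSUc replicate 3 carries PBS in its treatment field. Both were grouped by title. The libraries labelled Tfe3KO replicate 1 stood apart from the other Tfe3 libraries in Xist (57.1 to 115 TPM) and Ddx3y (1.21 to 1.96 TPM).

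Of the 42 genes, 33 had a RefSeq promoter window (GRCm38.p6, 250 bases before to 50 after the start) within 50 bases of the start in the deposited tables. The windows were searched on both strands for the CCAAT box (CCAAT), for the cell cycle homology region (TTTGAA or TTCGAA) and for an E2F element in any of 4 forms (the first being TTTGGCG, the second being TTTCCCG, the third being TTTGCCG and the last being TTTCGCG), where matches of different kinds can share at most an end base. A CCAAT box stood in 29 of the 33 windows (87.9%), against 38.7% of the windows of 17070 genes, and 57.6% held more than 1 against 13%. The cell cycle homology region stood in 81% of 21 mitosis windows and 27.3% of 11 replication windows, against 17.2% of all. An E2F element stood in 45.5% of the replication windows and 19% of the mitosis windows, against 8.19% of all. Shown are the windows of 2 mitosis and 2 replication genes, of which Mcm3 alone holds an E2F element. In each sequence, given 5′ to 3′ on the gene's strand, capitals mark the matches.
Mki67 (mitosis, chr7:135716330-135716629, minus strand): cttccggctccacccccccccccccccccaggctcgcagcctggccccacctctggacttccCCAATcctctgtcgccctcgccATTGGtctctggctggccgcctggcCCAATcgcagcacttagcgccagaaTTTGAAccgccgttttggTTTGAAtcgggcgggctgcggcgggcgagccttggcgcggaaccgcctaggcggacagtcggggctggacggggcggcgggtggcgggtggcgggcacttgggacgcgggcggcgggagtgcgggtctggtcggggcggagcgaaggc
Top2a (mitosis, chr11:99024140-99024439, minus strand): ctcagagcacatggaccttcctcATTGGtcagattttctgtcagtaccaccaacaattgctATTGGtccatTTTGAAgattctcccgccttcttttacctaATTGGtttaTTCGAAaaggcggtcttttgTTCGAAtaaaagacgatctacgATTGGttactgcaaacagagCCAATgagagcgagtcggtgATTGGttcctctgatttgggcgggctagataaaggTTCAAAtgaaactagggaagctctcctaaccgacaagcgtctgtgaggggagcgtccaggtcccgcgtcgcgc
Mcm2 (replication, chr6:88898731-88899030, minus strand): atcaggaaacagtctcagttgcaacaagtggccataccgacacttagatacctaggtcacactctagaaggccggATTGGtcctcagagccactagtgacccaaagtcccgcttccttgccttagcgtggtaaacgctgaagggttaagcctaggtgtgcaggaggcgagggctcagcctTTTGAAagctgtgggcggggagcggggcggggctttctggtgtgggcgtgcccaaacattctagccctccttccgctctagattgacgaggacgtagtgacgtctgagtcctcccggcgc
Mcm3 (replication, chr1:20820263-20820562, minus strand): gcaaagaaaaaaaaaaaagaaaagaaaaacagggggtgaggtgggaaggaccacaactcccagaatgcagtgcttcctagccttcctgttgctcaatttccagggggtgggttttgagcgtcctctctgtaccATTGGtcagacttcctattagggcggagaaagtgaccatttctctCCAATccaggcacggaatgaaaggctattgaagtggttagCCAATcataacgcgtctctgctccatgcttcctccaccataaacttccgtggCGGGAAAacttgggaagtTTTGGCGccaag
The Mki67 window holds 3 CCAAT boxes and 2 cell cycle homology regions, the latter 116 and 98 bases before the start. The Top2a window holds 6 CCAAT boxes and 4 cell cycle homology regions. The Mcm2 window holds 1 of each. The Mcm3 window holds 3 CCAAT boxes and, after the start, 2 E2F elements, and no cell cycle homology region. A match is a run of letters and not a measured site.

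**Figure D1:**
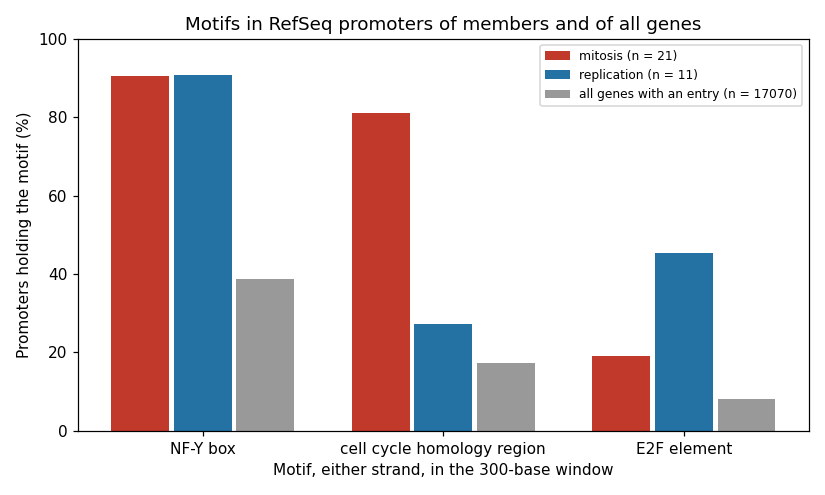
Share of RefSeq promoter windows (y axis, percent, bars from 0) that hold a CCAAT box (labelled NF-Y box), a cell cycle homology region or an E2F element (x axis) among mitosis genes (red), replication genes (blue) and all 17070 genes with a window (grey). The cell cycle homology region stands in 81% of mitosis and 27.3% of replication windows, the E2F element in 19% and 45.5%.

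Without particles the level of these genes differed more between experiments than within most of them. Over the 29 PBS libraries of wild type or vehicle cells, Mki67, the marker of cycling cells, ranged from 5.56 to 120 TPM with a median of 13.2. Top2a, the topoisomerase that resolves replicated chromosomes, ranged from 6.70 to 139 with a median of 17.9. The mitosis genes summed to 1458 to 1759 TPM in Ampka1WT, 469 to 477 in TfebWT and 114 to 163 in the particle experiment. The replication genes were closer together, at 334 to 450.5, 445 to 447 and 255 to 308 TPM in the same groups. Of these sums Pcna alone made up 76.0 to 109, 209 to 220 and 115 to 157 TPM. Medium and M-CSF dose differed with the experiment for the Ampka1 cells, and their part in the level was not tested.

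**Figure D2:**
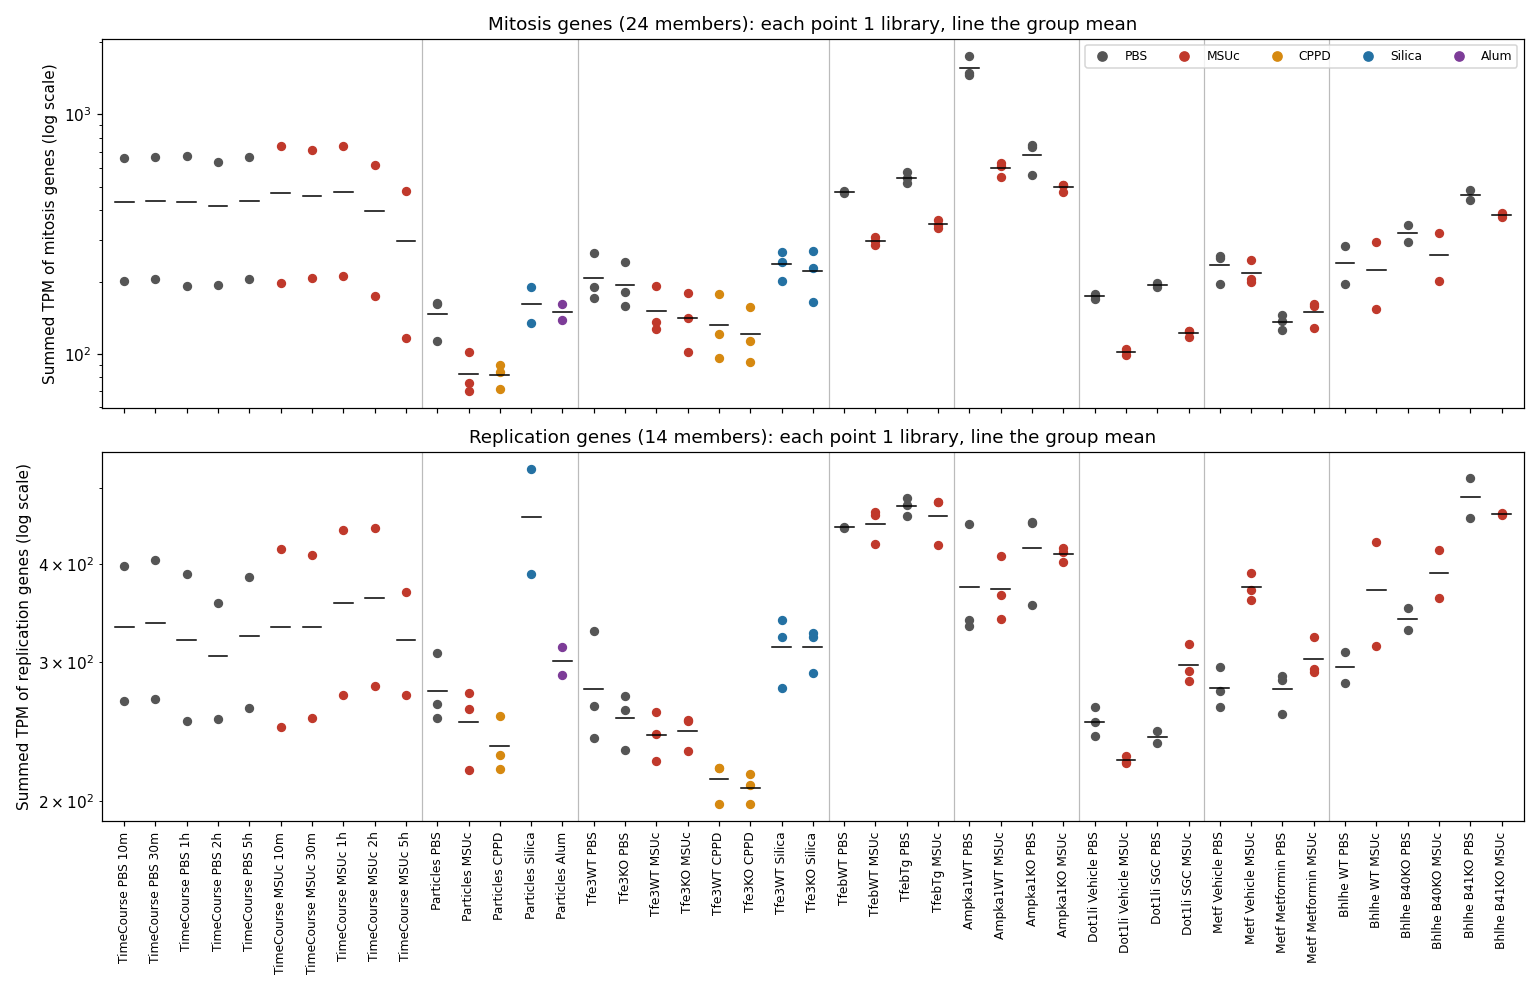
Summed TPM (y axis, log scale) of the 24 mitosis genes (top) and 14 replication genes (bottom) in every library (point) of every group (x axis, experiments split by vertical lines), coloured by particle, with the group mean as a line. The mitosis sum is highest in Ampka1WT PBS (1458 to 1759 TPM), and each time course group has 1 high and 1 low library. Pcna makes up 115 to 157 TPM of the replication sum in PBS of the particle experiment.

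The time course asked when the response to MSUc begins. In each of its 10 groups 1 library had high and 1 low mitotic transcripts: over all time points Mki67 lay at 38.3 to 58.6 TPM in one and 10.4 to 16.2 in the other. After 10 min, 30 min and 1 h limma called none of the 42 (0.0486%, 0.68% and 2.33% of 12350 genes rose and 0.0081%, 0% and 0.947% fell), and none had an unadjusted p under 0.05. After 2 h Pcna, the sliding clamp of the replication fork, measured 91.5 and 113 TPM in PBS and 200.2 and 147 in MSUc, with no overlap. It rose by 0.75 ± 0.25 log2 (limma adjusted p = 0.035), as the single member called (11.2% of genes rose and 22.3% fell).

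After 5 h Pcna stood at 194 and 168 TPM against 93.6 and 121 and had risen by 0.76 ± 0.25 log2 (limma adjusted p = 0.023). E2f1, the activator of S phase genes, fell by 0.57 ± 0.13 log2 (limma adjusted p = 0.0028), from 15.6 and 16 to 10.1 and 10.5 TPM. The helicase subunit gene Mcm6 (39.8 and 48.6 against 29.7 and 20.7 TPM) and Gins2 of the GINS complex (16.5 and 23.1 against 11.8 and 9.07) also fell (-0.80 ± 0.25 log2 and -0.86 ± 0.33 log2, limma adjusted p = 0.017 and 0.043). In none of these 4 did the groups overlap. Of the 42 genes 1 rose and 3 fell (16.4% and 32.9% of all), and after median-of-ratios scaling 1 and 1 (25% and 20.4%). Rrm2, the small subunit of ribonucleotide reductase, measured 15 and 34 TPM in PBS and 12 and 5.49 in MSUc, a change of -1.37 ± 0.75 log2 that did not pass (limma adjusted p = 0.15). Top2a, at 17.9 and 52.1 TPM in PBS and 35.8 and 8.42 in MSUc, overlapped between the groups. Without 1 library at a time 0 to 1 member was called at 2 h and 2 to 3 at 5 h. These calls also depended on how the high and low libraries were handled. A block that joined them across groups (crossed replicate numbers, chosen after seeing the data) called 1 at 1 h, where it rose, 3 rises and 9 falls at 2 h (16.1% and 33.8% of genes), and 1 rise and 30 falls at 5 h (21.1% and 43.5%), with Rrm2 and Top2a among the 30.

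In the particle experiment, before median-of-ratios scaling, MSUc lowered most of the 42 genes, while Pcna and Tpx2 rose. A larger share of the replication genes than of the mitosis genes fell. Of the 42, 2 rose and 31 fell (18.1% and 44.9% of 12314 genes), with a median change of -0.65 against -0.29 over all genes tested. Of 14 replication genes 13 fell and 1 rose, and of 24 mitosis genes 15 fell and 1 rose. With median-of-ratios scaling, which raised the median of all genes by 0.28, 2 rose and 18 fell (28.5% and 27.3% of genes). Summed macrophage markers were also lower, at 19454 to 21131 TPM after MSUc and 28309 to 31126 in PBS, and their part in the result was not tested.

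At the G1 to S step E2f1 measured 14.7, 15.9 and 17.6 TPM in PBS and 7.20, 7.96 and 8.93 after MSUc. It fell by 0.92 ± 0.14 log2 (limma adjusted p = 0.00011), and no MSUc library reached a PBS library. Ccne1, which encodes cyclin E1, fell by 0.40 ± 0.14 log2 (limma adjusted p = 0.028) from 2.52, 2.43 and 2.07 to 1.75, 1.64 and 1.21 TPM. Ccne2, the other cyclin E gene, measured 1.88, 2.35 and 2.36 and 2.83, 2.11 and 2.38 TPM and did not pass (0.11 ± 0.16 log2, limma adjusted p = 0.59).

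Among replication genes all 6 helicase subunit genes, Mcm2 to Mcm7, fell under either scaling. Mcm7 went from 10.7, 15.8 and 11 TPM to 3.41, 4.02 and 3.85 and fell by 1.49 ± 0.14 log2 (limma adjusted p = 3e-06), the largest fall of the 42. Mcm5 fell by 0.85 ± 0.17 log2 (8.87, 9.04 and 8.88 against 4.16, 5.79 and 3.73 TPM), and the sum of Mcm2 to Mcm7 was 43.2 to 55.7 TPM against 90.9 to 99.0. The groups of each did not overlap. Gins1 fell by 1.19 ± 0.32 log2 (limma adjusted p = 0.006), with PBS libraries spread from 2.74 to 7.10 TPM. Rrm2 fell by 0.89 ± 0.24 log2 (limma adjusted p = 0.0071). Pcna moved the other way: it measured 137, 157 and 115 TPM in PBS and 196, 194 and 158 in MSUc, and rose by 0.42 ± 0.15 log2 (limma adjusted p = 0.029), with all MSUc libraries above all PBS libraries by a narrow margin.

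Among mitosis genes Cenpa, the centromeric histone H3 variant, fell by 1.23 ± 0.10 log2 (limma adjusted p = 7.5e-07), from 41.3, 43.8 and 47.6 TPM to 17.4, 19.9 and 17.7. Cdk1, the mitotic kinase, fell by 1.18 ± 0.21 log2 (limma adjusted p = 0.00048) from 5.82, 11.5 and 7.04 to 2.93, 3.35 and 2.47 TPM. Both pairs of groups lay apart. Top2a fell by 0.81 ± 0.25 log2 (limma adjusted p = 0.013). Mki67 did not pass (-0.02 ± 0.20 log2, limma adjusted p = 0.95), at 5.56, 8.90 and 9.33 and 6.79, 9.44 and 6.95 TPM, and neither did the cyclin B1 gene Ccnb1 (-0.33 ± 0.36 log2). Tpx2, an activator of Aurora A on the spindle, rose by 0.48 ± 0.15 log2 (limma adjusted p = 0.015), from 3.02, 4.07 and 4.04 to 5.27, 6.09 and 5.22 TPM.

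**Figure D3:**
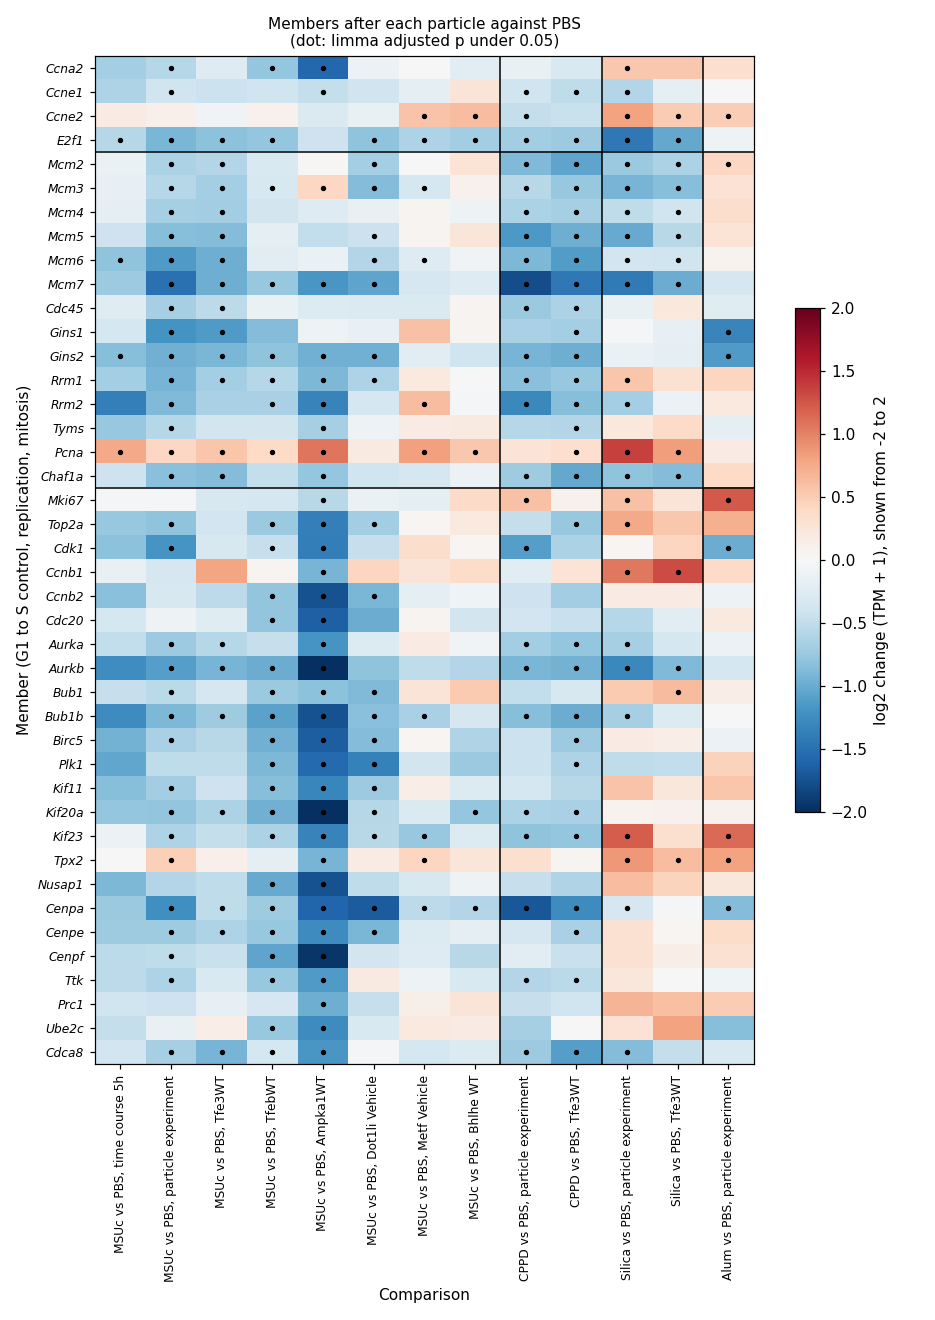
Change of each of the 42 genes (y axis, by role) after each particle against PBS in 13 comparisons (x axis), as log2 change of TPM + 1 on a colour scale from -2 (blue) to 2 (red), with a dot where the limma adjusted p was under 0.05. Pcna lies above 0 and E2f1 below 0 in all 13, and all 24 mitosis genes fell in Ampka1WT.

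MSUc was compared with PBS in wild type or vehicle cells in 8 separate experiments, which share no libraries. Pcna rose in 7 of the 8 (changes of 0.17 to 1.07, median 0.55), the exception being the SGC0946 vehicle cells (0.17 ± 0.07 log2, limma adjusted p = 0.068). E2f1 fell in 7 of the 8 (-0.92 to -0.41, median -0.74), all but Ampka1WT (-0.41 ± 0.18 log2, limma adjusted p = 0.062). Cenpa fell in 7, and Gins2, Kif20a (a kinesin of cytokinesis) and Bub1b (a spindle checkpoint kinase) fell in 6. With median-of-ratios scaling Pcna rose in 8 and E2f1 fell in 7, while Cenpa, Gins2, Bub1b and Kif20a fell in 4, 4, 4 and 3. In all, 17 of the 42 genes fell in at least 4 experiments (40.5%, against 44.3% of the 11186 genes tested in all 8), so that count is near the background. Pcna was the 1 gene that rose in at least 4 (2.38% against 18.1%). Of the 42, 37 fell in at least 1 experiment and rose in none (88.1% against 60.3%), and 3 both rose and fell (7.14% against 6.78%). With median-of-ratios scaling 7 fell in at least 4 (16.7% against 26.9%: Aurkb, Bub1b, Cenpa, Cenpe, E2f1, Gins2 and Mcm7), 29 fell in at least 1 and rose in none (69% against 44.6%) and 7 both rose and fell (16.7% against 6.37%). Mki67 fell in 1 experiment with a median change of -0.17, and Top2a fell in 4 with a median of -0.71.

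How many of the 42 fell varied with the experiment. In Tfe3WT 1 rose and 19 fell (20% and 41.6% of 12796 genes), 11 of the fallers being replication genes and 7 mitosis genes. In TfebWT 1 rose and 26 fell (12.6% and 32.9% of 11991), 5 and 19 of them replication and mitosis genes. After median-of-ratios scaling 1 rose and 14 fell there (20.1% and 16.5% of genes), and without PBS replicate 1, 0 rose and 17 fell. In the SGC0946 vehicle cells 0 rose and 19 fell (17.8% and 37.7% of 12324). In 2 experiments rises and falls were closer in number. In the metformin vehicle cells 4 rose and 6 fell (19.6% and 34.3% of 12514 genes, and 7 and 2, against 25.7% and 26.4%, after median-of-ratios scaling). The Bhlhe wild type had 2 libraries a group. In it 2 rose and 3 fell (17.1% and 43.4% of 12142, and 3 and 1, against 27.6% and 25.2%, after that scaling). The median change of the 42 was -0.06 and -0.08 there, against -0.51, -0.68 and -0.48 in the first 3. Read against all genes, the share that fell was near the background in Tfe3WT and the SGC0946 vehicle cells, above it in TfebWT and the particle experiment, and below it in the metformin vehicle cells, the Bhlhe wild type and, without the crossed block, the time course. With median-of-ratios scaling it was 33.3% against 16.5% in TfebWT, 42.9% against 27.3% in the particle experiment, 31% against 28% in Tfe3WT and 33.3% against 25.6% in the SGC0946 vehicle cells. Leaving out 1 library turned the balance in the Bhlhe wild type, with 7 rises and 1 fall without MSUc replicate 1 and 2 and 14 without MSUc replicate 2. The differences between experiments were not tested.

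In Tfe3WT the largest falls were of Gins1 (-1.13 ± 0.25 log2), Mcm7 (-0.98 ± 0.27 log2) and Mcm6 (-0.98 ± 0.15 log2, limma adjusted p = 7.8e-06). Gins1 measured 4.60, 4.20 and 3.90 TPM in PBS and 1.55, 1.78 and 0.938 after MSUc. In TfebWT mitosis genes led: Bub1b fell by 1.06 ± 0.16 log2 (limma adjusted p = 0.00031) from 11.9 and 13 to 5.20, 4.60 and 6.64 TPM. Cenpf, a kinetochore protein gene (-1.06 ± 0.18 log2), and Nusap1, a spindle protein gene (-1.0 ± 0.22 log2), fell with it. The third MSUc library lay with the other MSUc libraries, and taking it as PBS, as its treatment field reads, left 0 of the 42 called. In the SGC0946 vehicle cells Cenpa fell by 1.67 ± 0.18 log2 (limma adjusted p = 2.2e-05), from 46.3, 44 and 37.3 to 17.3, 12.5 and 9.29 TPM, and the mitotic kinase gene Plk1 also fell (-1.35 ± 0.30 log2). In the metformin vehicle cells Rrm2 rose by 0.62 ± 0.17 log2 (limma adjusted p = 0.0095), from 23.4, 22.7 and 18.7 to 31.6, 36.9 and 32.8 TPM, which is against its falls in 3 other experiments. Kif23, a kinesin of the midbody, there fell by 0.76 ± 0.14 log2 (limma adjusted p = 0.00062). Ccne2 rose in those cells (0.58 ± 0.14 log2) and in the Bhlhe wild type (0.62 ± 0.14 log2, 2.69 and 2.90 against 4.30 and 5.39 TPM).

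CPPD, compared with the same PBS libraries as MSUc, gave 1 rise and 23 falls in the particle experiment (16.6% and 35.8% of genes, median -0.61 against -0.20). Mcm7 fell by 1.77 ± 0.14 log2 (limma adjusted p = 1.1e-06), to 2.81, 3.05 and 2.85 TPM. Cenpa fell by 1.69 ± 0.10 log2, to 12.1, 13 and 13.8 TPM, and Rrm2 fell as well (-1.29 ± 0.24 log2). Mki67 was the single member to rise (0.58 ± 0.20 log2, limma adjusted p = 0.031), at 11.3, 14.8 and 10.6 TPM, all above the PBS libraries. In Tfe3WT CPPD gave 1 rise, of Pcna (0.34 ± 0.10 log2), and 27 falls (18.5% and 41.7% of genes, and 1 and 16, against 28.3% and 25.4%, after median-of-ratios scaling), while Mki67 did not pass (0.09 ± 0.24 log2). Without PBS replicate 2 or CPPD replicate 3 these were 1 and 16. Set directly against MSUc, CPPD left Cenpa (-0.47 ± 0.10 log2, limma adjusted p = 0.0051) and Ccne2 (-0.58 ± 0.16 log2, limma adjusted p = 0.023) lower. The other 40 did not pass (14.8% of genes were higher and 8.86% lower).

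Silica, again with the same PBS libraries, split the genes. In the particle experiment 9 rose and 15 fell (24.4% and 43.9% of genes), and after median-of-ratios scaling, which raised the median of all genes by 0.31, 16 rose and 8 fell. Without that scaling neither share exceeds that of all genes. With it 38.1% of these genes rose, near the 35.6% of all genes, and 19% fell, below the 31.7% of all. The counts of rises alone therefore say nothing particular of these genes. E2f1 fell by 1.42 ± 0.15 log2 (limma adjusted p = 8.2e-06), to 6.41 and 4.45 TPM, and Mcm7 fell too (-1.42 ± 0.16 log2), to 3.55 and 4.47. All of Mcm2 to Mcm7 fell (4 of the 6 with that scaling), and their sum was 54.4 to 56.5 TPM, below the 90.9 to 99.0 of PBS. Pcna rose by 1.37 ± 0.17 log2 (limma adjusted p = 2.1e-05), to 296 and 419 TPM, well above every PBS library.

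Of the 24 mitosis genes 5 rose and 5 fell after silica, against 24.4% and 43.9% of all genes, so neither count is above the background. Kif23 rose by 1.21 ± 0.25 log2 (limma adjusted p = 0.0011), from 3.40, 5.46 and 6.28 TPM to 10.2 and 15.8. Ccnb1 (1.05 ± 0.40 log2), Tpx2 (0.87 ± 0.17 log2), Top2a (0.75 ± 0.28 log2) and Mki67 (0.59 ± 0.23 log2) rose with it. Aurkb, the kinase of the chromosomal passenger complex, fell by 1.30 ± 0.23 log2 (limma adjusted p = 0.00032), to 1.75 and 1.07 TPM from 4.54, 4.37 and 5.76. Ccne2 rose by 0.81 ± 0.18 log2 while Ccne1 fell by 0.58 ± 0.16 log2. Neutrophil markers (7 genes) summed to 260 to 362 TPM in these silica libraries and 49.3 to 113 in PBS, and macrophage markers to 35215 to 39837 against 28309 to 31126. Their part in the result was not tested. Without silica replicate 1, 14 rose and 11 fell.

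In Tfe3WT silica gave 5 rises and 9 falls (28.8% and 37.1% of genes, and 10 and 9, against 32.3% and 33.3%, after median-of-ratios scaling). E2f1 fell by 1.03 ± 0.09 log2 (limma adjusted p = 2.2e-09) and Mcm7 fell with it (-1.0 ± 0.27 log2). Pcna rose by 0.84 ± 0.10 log2 (limma adjusted p = 3.3e-07), from 90.1, 122 and 85.6 to 178, 192 and 159.8 TPM. Ccnb1 rose by 1.31 ± 0.35 log2, Bub1, a spindle checkpoint kinase gene, by 0.63 ± 0.26 log2 and Tpx2 by 0.61 ± 0.24 log2. The falls were thus of 7 replication genes, E2f1 and Aurkb, and the PBS libraries of this experiment are not those of the particle experiment. Without PBS replicate 2, 9 rose and 6 fell. Neutrophil markers were at 1433 to 1990 TPM after silica and 289 to 584 in PBS.

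Alum gave 5 rises and 4 falls (27.1% and 19.2% of genes), fewer of both than the background would give. Mki67 rose by 1.23 ± 0.23 log2 (limma adjusted p = 0.00093), to 17.4 and 21.8 TPM, and Kif23 by 1.13 ± 0.25 log2, to 10.0 and 14.2. Gins1 (-1.33 ± 0.35 log2), Gins2 (-1.14 ± 0.22 log2), Cdk1 (-0.99 ± 0.24 log2) and Cenpa (-0.87 ± 0.11 log2) fell. Tpx2 (0.80 ± 0.17 log2), Ccne2 (0.50 ± 0.18 log2) and Mcm2 (0.42 ± 0.14 log2) were the other rises. E2f1, at 15 and 14.9 TPM, did not pass (-0.10 ± 0.15 log2, limma adjusted p = 0.65), and the MCM sum was 106 to 108 TPM. With median-of-ratios scaling 3 rose and 4 fell (21.8% and 23.2% of genes). Over all genes the alum changes rose with transcript length (Spearman's rho 0.486 across genes, which are not independent replicates, against -0.044 for silica), a measure that was not tested against these results.

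Silica and alum were then set directly against MSUc, which shares its libraries between the 2 comparisons. After silica 23 of the 42 were higher than after MSUc and 2 lower (30.3% and 33.3% of genes, median difference 0.73 against -0.06). The higher ones were 15 mitosis and 6 replication genes and 2 of G1 to S control. Kif23 was higher by 1.84 ± 0.25 log2, Top2a by 1.56 ± 0.28 log2 and Rrm1, the large subunit of ribonucleotide reductase, by 1.48 ± 0.18 log2 (limma adjusted p = 2.7e-05). E2f1 (-0.50 ± 0.15 log2) and Mcm3 (-0.35 ± 0.12 log2) were lower, and Mcm5 did not pass (-0.16 ± 0.19 log2, limma adjusted p = 0.48). Without silica replicate 2, 14 members were called.

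After alum 26 of the 42 were higher than after MSUc and 0 lower (41.7% and 11.5% of genes, median difference 0.82 against 0.32). With median-of-ratios scaling, which lowered the median of all genes by 0.37, 16 were higher and 1 lower (16.6% and 25.1% of genes). All of Mcm2 to Mcm7 were higher after alum than after MSUc, by 0.86 to 1.21 (0.44 to 0.79 with that scaling). After silica Mcm6 was higher (0.75 ± 0.12 log2), Mcm3 lower and the other 4 did not pass, under either scaling. Silica and alum were not tested against each other. E2f1 was higher by 0.83 ± 0.15 log2 (limma adjusted p = 0.00087). Rrm1 measured 7.12, 7.41 and 6.95 TPM after MSUc, 17.4 and 27.3 after silica and 18.8 and 20.8 after alum. Both silica and alum libraries lay above all MSUc libraries in that gene. Cdk1, in contrast, was higher after silica (1.22 ± 0.24 log2) and did not pass after alum (0.18 ± 0.24 log2).

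**Figure D4:**
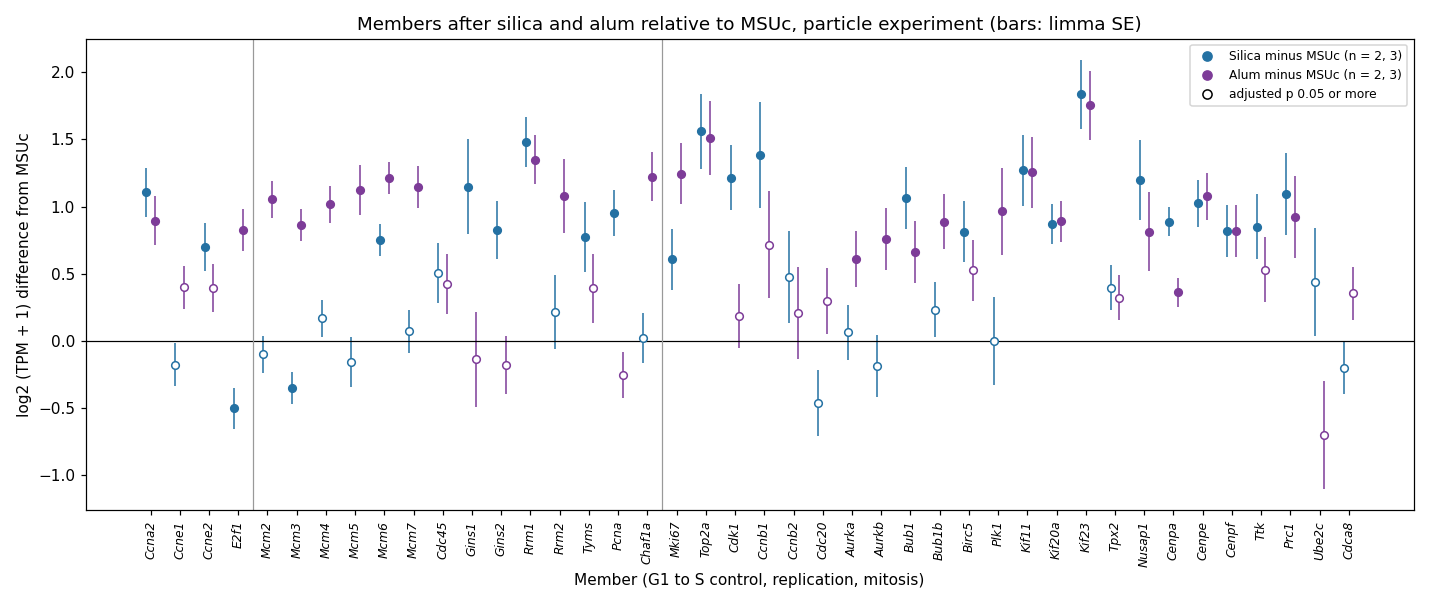
Difference in log2 (TPM + 1) from MSUc (y axis) of silica (blue) and alum (purple) for each of the 42 genes (x axis, by role), with limma SE as bars and open circles where the adjusted p was 0.05 or more. The 6 MCM genes lie between 0.86 and 1.21 after alum, and after silica only Mcm6 of them is a filled point above 0, while Kif23 is highest in both.

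Among the MSUc comparisons the 42 genes had their largest median change in the Ampka1 experiment. In Ampka1WT MSUc gave 2 rises and 32 falls (19.7% and 43.9% of 12834 genes), with a median change of -1.14 against -0.27 over all genes. All 24 mitosis genes fell, and their sum went from 1458 to 1759 TPM to 550 to 628. Kif20a fell by 2.29 ± 0.15 log2 (limma adjusted p = 2e-07), from 76.7, 67.5 and 69.4 TPM to 17.2, 13.2 and 11.4. Aurkb fell by 2.03 ± 0.13 log2, and Cenpf (-1.95 ± 0.14 log2) and the cyclin B2 gene Ccnb2 (-1.75 ± 0.18 log2) fell by similar amounts. Mki67 here fell by 0.56 ± 0.12 log2 (limma adjusted p = 0.0017), less than most mitosis genes. Of the replication genes 6 fell, among them Rrm2 (-1.33 ± 0.20 log2), and 2 rose: Pcna by 1.07 ± 0.12 log2 (limma adjusted p = 1.5e-05) and Mcm3 by 0.42 ± 0.15 log2 (limma adjusted p = 0.025).

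In PBS the libraries labelled Ampka1KO already had low mitotic transcripts. Against Ampka1WT 3 of the 42 were higher and 25 lower (33.8% and 13.8% of genes, median -0.81 against 0.15), and the 25 were all 24 mitosis genes and Ccna2, the gene of cyclin A2. The largest differences were those of Cenpa (-1.92 ± 0.09 log2, limma adjusted p = 2.5e-08), Ccnb2 (-1.54 ± 0.18 log2), Cdc20, which encodes an activator of the anaphase-promoting complex (-1.53 ± 0.16 log2), and Nusap1 (-1.49 ± 0.24 log2). Cdc20 measured 91.5, 82.5 and 88.6 TPM in Ampka1WT and 22.4, 36.4 and 32.2 in Ampka1KO. No replication gene was lower, and Mcm2 (0.74 ± 0.18 log2), Tyms, thymidylate synthase (0.72 ± 0.18 log2), and Ccne1 (0.73 ± 0.19 log2) were higher. Rrm2 did not pass (0.41 ± 0.20 log2, limma adjusted p = 0.11).

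The response to MSUc was smaller in the libraries labelled Ampka1KO. The mitosis sum was 558 to 748 TPM in PBS and 477 to 510 after MSUc. In the test of the difference between the 2 responses 27 genes were higher in the libraries labelled Ampka1KO and 2 lower (34.7% and 15.9% of genes, median 0.82 against 0.30), 21 of the 27 being mitosis genes. Kif20a measured 22.1, 30.7 and 30.7 TPM in PBS and 22.7, 20.9 and 19.4 after MSUc, and its response differed by 1.92 ± 0.22 log2 (limma adjusted p = 3.9e-05). Cdc20 (1.66 ± 0.23 log2), Cenpf (1.50 ± 0.20 log2), Ccnb1 (1.20 ± 0.15 log2) and Cdk1 (1.16 ± 0.18 log2) differed in the same direction, and Mki67 did not pass (-0.07 ± 0.17 log2, limma adjusted p = 0.74). Rrm2 stood at 63.3, 40.4 and 40.8 TPM and 21.4, 17.8 and 15.6 in Ampka1WT without and with MSUc. In Ampka1KO it stood at 47.6, 67.6 and 76.5 and 77.1, 84.9 and 81.5, a difference of 1.70 ± 0.28 log2 (limma adjusted p = 0.00048).

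Pcna gave the opposite sign. It went from 109, 82.7 and 76 TPM to 188, 195 and 175 in Ampka1WT and from 90.7, 91.6 and 88.3 to 69.4, 76.6 and 88.7 in Ampka1KO, a difference of -1.28 ± 0.17 log2 (limma adjusted p = 0.00015). Mcm3 differed by -0.64 ± 0.21 log2 (limma adjusted p = 0.022). Other cell markers moved with the label in this experiment. Stromal markers (6 genes) summed to 2410 to 3279 TPM in Ampka1KO PBS and 6658 to 7725 after MSUc, against 161 to 485 in all Ampka1WT libraries. Macrophage markers summed to 24729 to 27393 and 8393 to 10531 TPM in Ampka1KO and to 29294 or more in Ampka1WT, and neutrophil markers to 140.5 or more against 62.3 or less. The part of these markers in the Ampka1KO results was not tested.

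**Figure D5:**
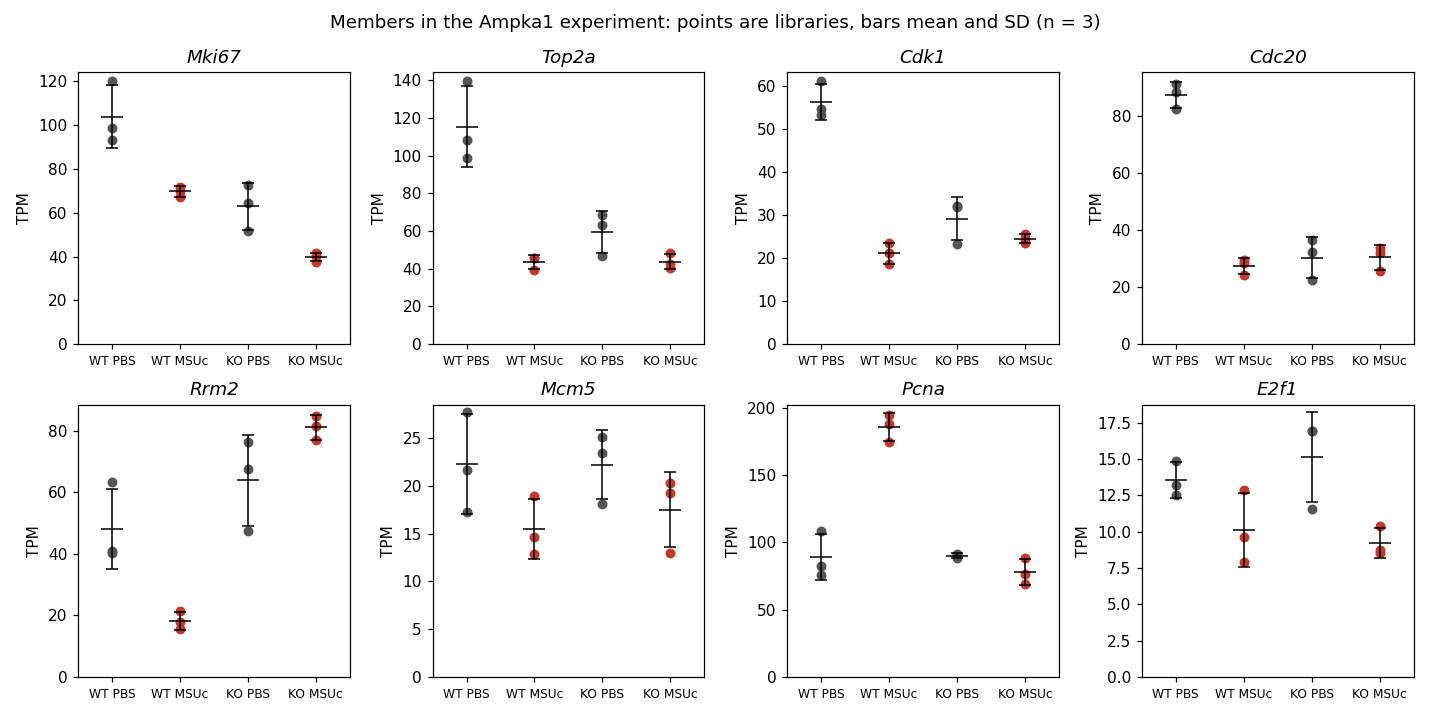
TPM (y axis, from 0) of 8 of the genes in the Ampka1 experiment, with each library as a point and mean and SD (n = 3) as bars, for PBS (grey) and MSUc (red) in Ampka1WT (WT) and Ampka1KO (KO). Cdc20 and Cdk1 are high in WT PBS alone, Rrm2 is lowest in WT MSUc, and Pcna is highest in WT MSUc (175 to 195 TPM).

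Metformin without particles lowered much of the set. Against vehicle 4 were higher and 21 lower (23.2% and 16.3% of genes, median -0.50 against 0.08), the latter being 15 mitosis genes, 5 replication genes and Ccna2. The largest were those of Cenpa (-1.56 ± 0.21 log2, limma adjusted p = 9.9e-05), Ccnb2 (-1.40 ± 0.22 log2) and Plk1 (-1.39 ± 0.18 log2). Plk1 measured 10.5, 11.5 and 8.01 TPM with vehicle and 3.45, 3.34 and 2.70 with metformin, and Rrm2 23.4, 22.7 and 18.7 and 8.58, 9.69 and 6.63 (-1.29 ± 0.17 log2, limma adjusted p = 0.00011). In both genes every metformin library lay below every vehicle library. The 4 higher genes were Mcm2 (0.76 ± 0.13 log2), Tpx2 (0.52 ± 0.12 log2), Ccne2 (0.43 ± 0.14 log2) and Pcna (0.32 ± 0.09 log2), and E2f1 did not pass (-0.04 ± 0.11 log2). The response to MSUc differed from that of vehicle cells in Pcna alone (-0.61 ± 0.13 log2, limma adjusted p = 0.0088), against 7.52% of genes higher and 4.72% lower and 4 members at an unadjusted p under 0.05. Pcna went from 116, 125 and 122 TPM to 207, 204 and 231 with vehicle and from 159, 152 and 143 to 198, 157 and 170.3 with metformin. Cell type markers also differed between these PBS libraries. Macrophage markers summed to 11466 to 13038 TPM with metformin and 23174 to 25984 with vehicle, 7 of 8 being lower and 1 higher. Neutrophil markers summed to 2.9 to 15.1 TPM with metformin and 16.9 to 74.3 with vehicle (2 of 5 tested lower), and stromal markers to 211 to 478 and 404.5 to 738 (3 of 6 lower). Mast cell markers summed to 12.4 to 16.4 TPM and 2.0 to 2.4 (1 of 2 tested higher). The part of these markers in the result was not tested.

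In the libraries labelled Bhlhe41KO all 42 genes had a positive difference from wild type in PBS, and 8 of them passed (1.76% of genes were higher and 0.997% lower, median 0.89 against 0.01). The largest of these differences was that of Bub1 (1.35 ± 0.30 log2, limma adjusted p = 0.048), at 1.91 and 3.15 TPM in wild type and 7.62 and 8.13 in Bhlhe41KO. Mcm5 (1.15 ± 0.26 log2), Ccna2 (1.13 ± 0.25 log2), Rrm1 (1.10 ± 0.24 log2), Tpx2 (1.07 ± 0.22 log2), Ccne1 (1.07 ± 0.18 log2), Ccne2 (0.84 ± 0.14 log2) and Pcna (0.63 ± 0.09 log2) were the others. Mki67, at 10.1 and 18.1 against 32.6 and 34 TPM, did not pass (1.24 ± 0.40 log2, limma adjusted p = 0.14). With 2 libraries a group these calls were not stable: without 1 library 0 to 2 of the 8 passed and no other member did, median-of-ratios scaling called 5, and a fit of the compared groups alone called 0. Neutrophil markers summed to 130.5 to 148 TPM in Bhlhe41KO and 29.9 to 34.5 in wild type, and macrophage markers to 14497 to 16187 against 22354 to 22629. Bhlhe40KO, set against the same 2 wild type PBS libraries, had a positive difference in 41 of the 42, of which 0 passed. A positive sign was therefore not particular to Bhlhe41KO, and the part of the shared wild type libraries was not tested.

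The remaining labels moved none of the 42 past the threshold. In PBS limma called 0 for Tfe3KO (0.985% of genes higher and 1.38% lower), Tfeb-Tg (0.459% and 0.259%), SGC0946 (0.438% and 0.235%) and Bhlhe40KO (0.0494% and 0.0329%). At an unadjusted p under 0.05 these had 3, 2, 1 and 2 members. Nor did the response to MSUc differ in any of the 42 for Tfe3KO (0.414% and 1.31% of genes), Tfeb-Tg (0.0751% and 0.025%), SGC0946 (0.0325% and 0%), Bhlhe40KO (0% and 0.00824%) or Bhlhe41KO (0.00824% and 0.124%), where 1, 1, 4, 1 and 2 had an unadjusted p under 0.05. The median differences in PBS were -0.22, 0.12, 0.19 and 0.37 in the order of the first list. A p that misses the threshold does not show that the levels were alike.

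The regulators upstream of these genes were read from lists of related genes. Among 10 genes of CDK inhibitors and pocket proteins, Cdkn1a, which encodes p21, rose in 7 of the 8 MSUc experiments and Cdkn1b, which encodes p27, fell in all 8. In the particle experiment Cdkn1a measured 74.3, 66.5 and 77.9 TPM in PBS and 243, 228 and 235 after MSUc (1.68 ± 0.13 log2, limma adjusted p = 4.6e-07), and Cdkn1b 34.9, 31.5 and 36.9 and 10.4, 11.6 and 9.61 (-1.62 ± 0.13 log2). Neither pair of groups overlapped. After CPPD Cdkn1a also rose (1.54 ± 0.13 log2), and after silica (-0.18 ± 0.14 log2) and alum (0.17 ± 0.14 log2) it did not pass. Rbl2, the pocket protein p130, and Rb1 fell in all 8 MSUc experiments (Rb1 in 4 with median-of-ratios scaling).

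A list of 8 genes of G1 held cyclins and kinases and also Myc, a transcription factor gene. Of these Ccnd3 fell and Cdk6 rose in all 8 MSUc experiments, and Ccnd2 and Myc rose in 7. Of 12 genes of origin licensing and firing, Gmnn, which encodes the licensing inhibitor geminin, fell in all 8 and Cdt1, the loader that geminin inhibits, rose in 5. Gmnn went from 22.3, 28.9 and 27.8 TPM to 5.75, 7.76 and 3.77 in the particle experiment. Of 14 DNA polymerase and clamp loader genes 13 fell after MSUc and 13 after CPPD there, and 0 rose (44.9% and 35.8% of all genes fell). Lig1, DNA ligase 1, fell by 1.51 ± 0.10 log2 (limma adjusted p = 1.1e-07), from 13.7, 15.4 and 15.4 to 4.23, 4.73 and 4.73 TPM, and at 15.5 and 15.7 after alum did not pass (0.07 ± 0.11 log2). Of 11 cell cycle transcription factors E2f2 fell in all 8, Foxm1, an activator of mitosis genes, fell in 2, and Mybl2, which encodes B-MYB, passed in none of the 5 in which it was tested. Of 7 genes of M-CSF signalling the receptor gene Csf1r fell (in 6 with median-of-ratios scaling) and its ligand gene Csf1 rose in all 8.

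Of 12 p53 targets Mdm2, Plk2, Plk3 and Gadd45b rose and Sesn1 and Trp53inp1 fell in all 8 MSUc experiments. With metformin in PBS 9 of the 12 rose and 3 fell (23.2% and 16.3% of genes), the rises including Gadd45a (1.88 ± 0.10 log2). Cdkn1a, counted above with the CDK inhibitors and not among these 12, also rose (1.72 ± 0.09 log2, limma adjusted p = 5.7e-08). It measured 130.0, 126 and 117 TPM with vehicle and 442, 406 and 389 with metformin. In the PBS libraries labelled Ampka1KO 6 of the 8 genes of the G1 list were higher and 1 lower (33.8% and 13.8% of genes): Ccnd2 stood at 58.1, 78.8 and 80.0 TPM against 4.72, 3.90 and 5.72 (3.66 ± 0.22 log2) and Myc at 18, 22 and 21.6 against 1.85, 1.95 and 2.34 (2.82 ± 0.13 log2), in the libraries with the high stromal markers given above. Cdkn2c, the inhibitor p18, was lower there (-1.54 ± 0.14 log2).

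The authors' deposited region lists were searched for sites nearest to the 42 genes. The 42 are a small part of the 24940 genes listed. Sites nearest to other sets of that size were not counted, so the counts say nothing particular of these genes. Coordinates are mm10, and scores, changes and adjusted p are those of the authors' deposited table. Reduced H3K27ac, a mark of active promoters and enhancers, was listed at the promoters of Bub1b (chr2:118597172-118599172, log2 change -1.68, adjusted p = 0.016 in the authors' deposited table) and Ccnb2 (chr9:70420598-70422598, log2 change -1.04, adjusted p = 0.037 in that table). Signal at the Bub1b promoter in the authors' deposited table was 69.5, 42.8 and 53.1 in PBS and 26.6 and 10.1 after MSUc. Reduced H3K4me3, a promoter mark, was listed at Birc5, the survivin gene (chr11:117847714-117849714, log2 change -1.0, adjusted p = 0.011 in the authors' deposited table), with signal of 123 and 135 in PBS and 63.3 and 67.2 after MSUc. The lists hold 3 such regions among 1838 with reduced H3K27ac, the other lying between genes upstream of Mki67 (distance of -74825 bases to its start), and 1 among 868 with reduced H3K4me3. The promoter windows of these 3 genes and of Pcna, which was chosen after its values were seen, hold the following matches in capitals.
Bub1b (chr2:118597961-118598260, plus strand): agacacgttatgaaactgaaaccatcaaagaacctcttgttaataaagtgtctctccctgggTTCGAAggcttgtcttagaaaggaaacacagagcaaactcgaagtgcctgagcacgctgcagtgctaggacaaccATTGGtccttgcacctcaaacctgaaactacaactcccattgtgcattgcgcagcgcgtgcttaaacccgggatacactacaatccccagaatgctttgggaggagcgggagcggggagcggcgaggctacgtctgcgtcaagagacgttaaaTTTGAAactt
Ccnb2 (chr9:70421505-70421804, minus strand): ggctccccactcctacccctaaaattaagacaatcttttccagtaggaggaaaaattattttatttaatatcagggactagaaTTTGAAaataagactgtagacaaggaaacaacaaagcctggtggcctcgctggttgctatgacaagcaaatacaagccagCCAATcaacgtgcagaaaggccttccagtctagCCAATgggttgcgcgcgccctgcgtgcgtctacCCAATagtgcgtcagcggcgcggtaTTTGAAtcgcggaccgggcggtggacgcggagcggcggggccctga
Birc5 (chr11:117848987-117849286, plus strand): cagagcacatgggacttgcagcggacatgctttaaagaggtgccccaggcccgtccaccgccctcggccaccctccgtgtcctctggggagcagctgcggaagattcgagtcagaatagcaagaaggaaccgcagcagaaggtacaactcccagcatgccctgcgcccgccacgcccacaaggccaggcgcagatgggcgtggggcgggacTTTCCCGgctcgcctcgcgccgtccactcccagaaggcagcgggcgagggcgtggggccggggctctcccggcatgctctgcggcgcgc
Pcna (chr2:132253131-132253430, minus strand): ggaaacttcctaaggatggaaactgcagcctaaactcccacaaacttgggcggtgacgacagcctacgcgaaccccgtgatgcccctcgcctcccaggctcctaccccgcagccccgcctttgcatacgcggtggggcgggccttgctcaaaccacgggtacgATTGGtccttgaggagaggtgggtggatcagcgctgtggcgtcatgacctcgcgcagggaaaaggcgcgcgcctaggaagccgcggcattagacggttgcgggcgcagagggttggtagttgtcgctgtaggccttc
The Ccnb2 window holds CCAAT boxes that start 87, 54 and 21 bases before the start and a cell cycle homology region just after it. In the Birc5 window an E2F element was the single match, and in the Pcna window a CCAAT box.

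The peaks gained with MSUc number 4756 for DOT1L, 4446 for TFE3 and 5667 for TFEB, of which 3, 4 and 7 are nearest to one of the 42 genes. Each lies in an intron or between genes. TFE3 binding after MSUc was measured in 1 library, so the gained TFE3 peaks have no replicate with MSUc. An interval upstream of Mcm6 (-15281 bases from its start), in intron 9 of a transcript of another gene, is in all 3 lists (chr1:128374834-128375139 in the TFEB list). Another in intron 3 of Kif23 (chr9:61943631-61943891 in the DOT1L list) is in the DOT1L and TFEB lists and inside a gained H3K27ac region (chr9:61942762-61944762, log2 change 1.58, adjusted p = 0.03 in the authors' deposited table). Its H3K27ac signal there was 11.4, 21.4 and 22.5 in PBS and 77.0 and 38.0 after MSUc. Kif23 transcripts fell in 5 of the 8 MSUc experiments (2 with median-of-ratios scaling) and rose in none. Of 4208 reduced DOT1L peaks 7 are nearest to 4 of the genes, Mki67, Kif23, Kif11 and Ube2c.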

How the data were processed

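RNA-seq libraries (115 analysed in 8 tables) measured transcripts in macrophages. Values are TPM, made by the authors with STAR alignment, the mm10 build and HOMER, per the submitters' processing notes, which give no settings or versions. Each transcript's TPM times its length was a whole multiple of 1 step per library (tolerance 0.15 of a step), which gave the reads behind it. The transcripts kept in the tables sum to 528079 to 569594 TPM per library. Pcna has processed copies in the genome, between which the authors' counting could split reads. The region lists hold positions, signal per region, log2 changes and p-values as the authors deposited them, per the file headers. Their peak caller settings are not given in the sources used here.

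Genes that reached 1 TPM in at least the number of libraries of the smallest group were tested in R 4.3.3 with limma 3.58.1 (trend) on log2(TPM + 1), all groups of an experiment sharing one estimate of the spread, two-sided, with Benjamini-Hochberg adjustment over all genes tested and a threshold of 0.05. The log2 scale understates the change of low genes. The fit was tested on data simulated at the means and depths of the time course and the Ampka1 experiment. For MSUc at 5 h it recovered 50 of 100 genes changed 2-fold and 91 of 100 changed 4-fold, with 13 false calls. For MSUc in Ampka1WT these were 78, 96 and 8. The simulation gave all genes the same dispersion and did not include the high and low libraries of the time course. Python 3.11.15 with pandas 2.3.3 and numpy 2.4.6 made the tables, and matplotlib 3.10.9 the figures. Alternatives were median-of-ratios scaling, a pseudocount of 0.1, no filter, the compared groups alone, the replicate number as a block, each library left out and, for TfebWT MSUc replicate 3, its treatment field. Replicate numbers were taken to pair libraries where, over at least 3 pairs, the deviations of same-numbered libraries all correlated by over 0.1, which was met for CPPD in Tfe3WT alone (0.109 to 0.179).

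The 42 genes, the related lists and the tests were chosen with earlier results of these data known. Named in each comparison were, where they bear on it, Mki67, Top2a, Cdk1, Ccnb1, Mcm5, Rrm2, Pcna, Ccne1, Ccne2 and E2f1. Added were the 4 largest rises and falls among genes called with a mean of at least 2 TPM, those called against the majority, and up to 4 related genes a list of smallest p. Genes named beyond these were chosen after their values were seen. Promoter sequences are RefSeq's, GRCm38.p6. No pair of libraries of a group had identical values. Left out were 2 columns that match no sample's labels. The third alum library is not analysed here.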

Additional observations from a re-analysis of the deposited data

Results flagged for a closer look

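The response to MSUc differed between the libraries labelled Ampka1KO and Ampka1WT in 29 of the 42 genes, by the test of the difference itself (limma interaction, adjusted over all genes). Of the 42, 27 were higher and 2 lower, against 34.7% and 15.9% of all genes. The log2 difference in response, Ampka1KO minus Ampka1WT, was 1.92 for Kif20a, 1.70 for Rrm2, 1.66 for Cdc20, 1.50 for Cenpf, 1.20 for Ccnb1, 1.16 for Cdk1 and 0.95 for Top2a. It was -1.28 for Pcna and -0.64 for Mcm3, the 2 genes that rose with MSUc in Ampka1WT. Stromal markers summed to 6658 TPM or more after MSUc in the libraries labelled Ampka1KO and to at most 485 in Ampka1WT, and their part was not tested.

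With metformin the response to MSUc differed from that of vehicle cells in 1 of the 42 genes by the same test, Pcna, with a log2 difference of -0.61. Of all genes 7.52% were higher and 4.72% lower.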

How the results depend on the processing

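Given here is how many of the 42 genes passed. With median-of-ratios scaling these were 2 after MSUc at 5 h, 20 (2 higher, 18 lower) after MSUc in the particle experiment, 24 (16 and 8) after silica, 7 (3 and 4) after alum, 17 for alum against MSUc, 17 after CPPD in Tfe3WT, 19 (10 and 9) after silica in Tfe3WT, 15 after MSUc in TfebWT, 9 (7 and 2) in the metformin vehicle cells, 4 (3 and 1) in the Bhlhe wild type and 5 in Bhlhe41KO PBS. For Bhlhe41KO in PBS 1.09% of all genes were higher and 1.05% lower with that scaling. Without a filter 0 passed at 2 h and 2 in Bhlhe41KO, and with a pseudocount of 0.1 5 in Bhlhe41KO. Fits of the compared groups alone called 0 at 2 h, 2 at 5 h, 14 (10 and 4) after alum, 3 (2 and 1) for CPPD against MSUc, 3 (2 and 1) in the Bhlhe wild type and 0 in Bhlhe41KO. The TfebWT library taken as PBS left 0.

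With the replicate number as a block 4 passed for CPPD against MSUc, 24 (13 higher, 11 lower) after silica in Tfe3WT, 1 for Tfe3KO in PBS, 8 in the Bhlhe wild type and 20 in Bhlhe41KO, and no other count moved by over 1.5 times. In these the libraries share only a number. In the time course the deviations of PBS and MSUc libraries ran against their numbers, and a block of crossed numbers, chosen after seeing the data, called 1 at 1 h, 12 at 2 h (3 and 9) and 31 at 5 h (1 and 30).

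Leaving out 1 library at a time gave, for MSUc, 0 to 1 at 2 h, 2 to 3 at 5 h, 26 to 33 in the particle experiment, 15 to 22 in Tfe3WT, 17 to 27 in TfebWT (17 without PBS replicate 1), 33 to 36 in Ampka1WT, 16 to 20 in the SGC0946 vehicle cells, 6 to 11 in the metformin vehicle cells and 3 to 16 in the Bhlhe wild type. It gave 21 to 25 and 17 to 32 for CPPD (17 in Tfe3WT without PBS replicate 2 or CPPD replicate 3), 16 to 25 and 11 to 15 for silica, 5 to 8 for alum, 1 to 4, 14 to 26 and 19 to 27 for CPPD, silica and alum against MSUc, 27 to 28 and 25 to 30 for Ampka1KO in PBS and its response, 19 to 25 and 1 to 2 for metformin, and 0 to 2 for Bhlhe41KO. The larger side changed after silica without silica replicate 1 (25: 14 higher, 11 lower), after silica in Tfe3WT without PBS replicate 2 (15: 9 and 6), after alum without PBS replicate 1 (8: 3 and 5) or alum replicate 1 (7: 3 and 4), in the metformin vehicle cells without PBS replicate 1 (6: 4 and 2), PBS replicate 2 (7: 4 and 3), MSUc replicate 1 (6: 4 and 2) or MSUc replicate 3 (9: 5 and 4), and in the Bhlhe wild type without PBS replicate 2 (3: 2 and 1) or MSUc replicate 1 (8: 7 and 1), with 16 (2 and 14) without MSUc replicate 2. Where 1 library was left in a group, it was assumed to vary like the other groups. The cause of these shifts was not tested. No named gene that passed changed sign under any of these settings, but some no longer passed, as the counts above show. The median depth of 10.1 M reads and 2 or 3 libraries a group limit what could be called.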

Other observations

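Genes around the replication fork outside the 42 were also set against MSUc. For silica against MSUc 8 of 11 tested genes of origin licensing and firing were higher and 1 was lower (30.3% and 33.3% of all genes), with a median difference of 0.82 on the log2 scale. Pola1, the catalytic subunit of the primase polymerase, was higher by 1.57 ± 0.16 log2 and Prim1, a primase subunit, by 1.39 ± 0.14 log2. Cdt1, the licensing loader, was the single lower gene of the first list (-1.41 ± 0.15 log2). For alum against MSUc 13 of 14 polymerase and clamp loader genes were higher and 0 lower (41.7% and 11.5% of all genes). Of the 11 licensing and firing genes 5 were higher and 0 lower, near the share of all genes that were higher.

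Of 7 genes of M-CSF signalling 5 were lower after silica than after MSUc and 0 higher (33.3% and 30.3% of all genes), among them Csf1r (-1.06 ± 0.17 log2). In the response to MSUc of the libraries labelled Ampka1KO, 5 of the 7 were also lower than in Ampka1WT and 0 higher (15.9% and 34.7% of all genes), with a median of -1.33. There 6 of 10 CDK inhibitors and pocket proteins were higher and 0 lower, against the same 34.7% and 15.9% of all genes. The stromal markers in the libraries labelled Ampka1KO and the neutrophil markers after silica moved with these results, and their part was not tested.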
